A study of Canis lupus familiaris with 24 samples.

Results

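The genes described here encode the contractile apparatus of smooth muscle, the muscle of airways and pulmonary vessels. They are 10 in number, namely ACTA2, MYH11, MYL9, MYLK, TAGLN, CNN1, CALD1, LMOD1, SMTN and DES, out of 11963 gene symbols that the array annotation assigns to a probe set of their own. A probe set, the group of short probes that reads 1 transcript, was taken for a gene when its annotation was exactly that symbol, which gave 24 probe sets of the 22283 on the array. The rule itself used no measured value, but the genes were picked with earlier results of these data known. Another probe set, shared between DES and a second gene, was left out.

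Smooth muscle shortens when calcium and calmodulin activate myosin light chain kinase, which phosphorylates the regulatory light chain and lets smooth muscle myosin pull on actin filaments. Calponin, caldesmon, transgelin, leiomodin and smoothelin bind those filaments, and desmin links the contractile units to each other and to the cell's edge. In the lung these genes are known as markers of airway and vascular smooth muscle, and part of them is also expressed by pericytes, by myofibroblasts and, in other isoforms, by many non-muscle cells.

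Lung tissue of 3 anaesthetised mongrel dogs gave 24 pieces, each hybridised to its own array. The labels state that lavage with warm saline (20 ml/kg, 4 times) injured the left lung, and that the right one served as control. Each lung was ventilated on its own for 5 h at 25 breaths/min, and the control lung alone was given 5 cmH2O of positive end-expiratory pressure, so that "injured" stands for lavage, left side and lack of that pressure together. The pieces came from the apex or base and from the dependent (lower under gravity) or nondependent part, which made 8 groups of 3 arrays, each with 1 array per dog. The dogs are mongrels, described by no strain, and each piece held all cell types of the tissue.

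Dog RNA was hybridised to a human array, so each probe set responds to those dog transcripts that match its human probes. Between 60.78 and 82.32% of the probe sets had a Present call per array, the lowest shares being those of dog 1. In dog 3 all injured pieces but the base nondependent one gave arrays unlike the others, with top signals of 27749 (apex dependent), 22155 (apex nondependent) and 26350 (base dependent), while no other array exceeded 20465. Values below are log2 of the deposited signal. Differences were tested in limma over 20034 probe sets with the dog as a block, and a probe set was called at an adjusted p under 0.05.

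The smooth muscle genes were called Present on most arrays, as were most probe sets of the array. ACTA2, TAGLN, CNN1, SMTN and DES were called Present on 24 of 24 arrays by the brightest of each gene's tested probe sets, which is the one described unless another is named. MYH11 was called Present on 21 arrays, MYLK and CALD1 on 20, LMOD1 on 16 and MYL9 on 15. Of the 24 probe sets 22 reached the detection minimum of 6 arrays and were tested. Over the whole array 20034 of 22283 probe sets were tested, a share near that of the members. The calls therefore do not set the members apart. The other 2, a MYH11 and a LMOD1 probe set, were called Present on 0 arrays, and the MYH11 one ranged from 0.59 to 8.36, so neither was used.

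**Figure D1:**
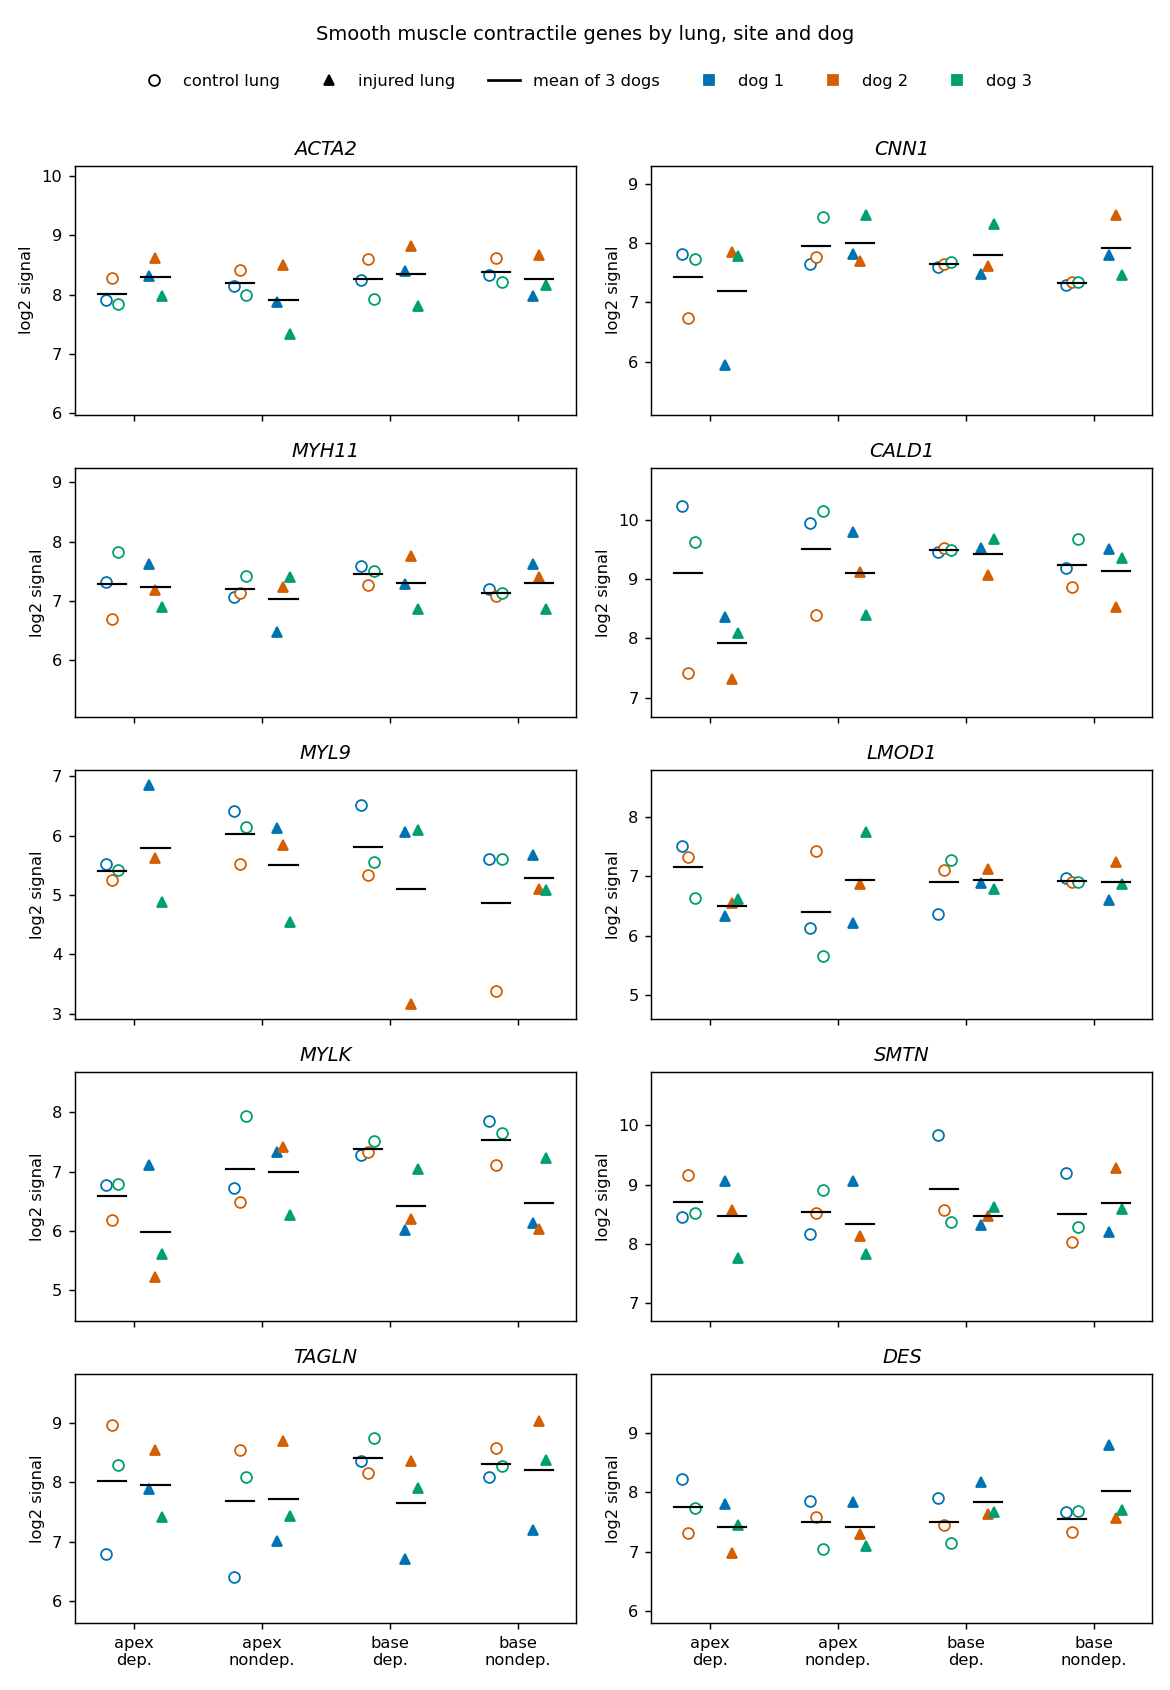
Log2 signal (vertical axis, a span of 4.2 log2 units in every panel) of the 10 genes at 4 sites (horizontal axis), as circles for the control and triangles for the injured lung, coloured by dog, with a bar at the mean of 3 dogs. The arrays of both lungs overlap widely for most genes, MYLK is the gene with the widest gap between the bars of the lungs at the base, and dog 2 tends to lie highest for ACTA2 and dog 1 for DES.

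No gene of the contractile set passed the test of injured against control lung when the 4 sites were averaged. Of its 22 tested probe sets limma called 0, where 42 of all 20034 probe sets (0.21%) were called, and the smallest adjusted p was 0.247. At an unadjusted p under 0.05 there were 3 of 22, against 9.71% of all tested probe sets, a share near that background. By the brightest probe set 8 of the 10 genes were lower and 2 higher in the injured lung, with a median log2 change of -0.08 beside 0.03 over all tested probe sets. Neither a fall nor a rise was thus shown for any of these genes. In whole-tissue RNA, the number of smooth muscle cells and the RNA per cell cannot be told apart.

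ACTA2, the alpha-actin of smooth muscle thin filaments, had control values of 7.84 at the lowest, 8.23 at the median and 8.61 at the highest, and injured values of 7.33, 8.24 and 8.82. The ranges of the lungs overlapped almost fully. Its log2 change was -0.01 ± 0.10 (SE, 12 arrays per lung from 3 dogs), and the 95% confidence interval ran from -0.21 to 0.20, the narrowest of the 10 genes. Its dimmer probe set stood at 0.23 ± 0.16.

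MYH11, the heavy chain of smooth muscle myosin, stood at -0.05 ± 0.16 (interval -0.38 to 0.28), with injured values from 6.47 to 7.75 and control values from 6.70 to 7.82. Its dimmer probe sets pointed in opposite directions, at -0.17 and 0.29. All MYH11 probe sets, the brightest one included, carry the _x_at suffix. On this array it marks probes that may match further transcripts, such as those of related myosins. MYL9, the regulatory light chain that the kinase phosphorylates, was the dimmest and most scattered gene, and its estimate of -0.10 had an interval of -0.70 to 0.50. In dog 2 MYL9 lay at 3.17 in the injured base dependent piece and at 3.38 in the control base nondependent piece, and the other 22 arrays were all above both.

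MYLK, the kinase that starts contraction, had the largest estimated difference of the 10 genes for the mean of 4 sites, by their brightest probe sets. At the base dependent site MYLK measured 7.29, 7.34 and 7.51 in the control lungs of dogs 1, 2 and 3 and 6.01, 6.21 and 7.05 in their injured lungs. At the base nondependent site it measured 7.85, 7.12 and 7.66 in the control lungs and 6.14, 6.03 and 7.23 in the injured lungs. At the base every injured piece was thus below the control piece of the same dog and site. The groups did not overlap at the base dependent site and did at the base nondependent site. How many of all probe sets separate in this way was not counted.

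At the apex MYLK differed in direction among dogs. The apex dependent control values were 6.77, 6.19 and 6.79 and the injured ones 7.12, 5.22 and 5.62. At the apex nondependent site the control lungs stood at 6.72, 6.49 and 7.94 and the injured lungs at 7.33, 7.41 and 6.27. There dogs 1 and 2 were higher and dog 3 lower in the injured lung.

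Over all sites MYLK was lower in the injured lung in 9 of 12 pairs and in the mean of each dog, by -0.51, -0.57 and -0.93. The log2 change was -0.67 ± 0.22 (interval -1.13 to -0.21, a 1.59-fold difference) with a limma adjusted p of 0.282, and no alternative brought it past the threshold (adjusted p from 0.167 to 0.611). At single sites the estimate was -1.08 ± 0.44 at the base nondependent (adjusted p = 0.457) and -0.96 ± 0.44 at the base dependent site (adjusted p = 0.778). The same gene locus also yields a long non-muscle kinase and the short protein telokin, and which of these the probe set reads in the dog was not analysed here.

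MYLK moved with a measure of RNA quality in dog 1 and with markers of 2 other cell types. Its Pearson r with the GAPDH signal at the 3' end minus that at the 5' end (log2), a measure of RNA quality, was -0.87, 0.18 and -0.46 over the 8 arrays of dogs 1, 2 and 3. With the same measure of ACTB the r was -0.59, 0.01 and -0.21. In dog 1 the GAPDH measure was 3.08 and 3.01 in the injured base pieces and 1.66 in both control base pieces. With both measures as covariates MYLK stood at -0.55 (limma adjusted p = 0.438). After centring each dog, MYLK had an r of 0.66 with the mean of the fibroblast markers and of 0.60 with that of the alveolar type 1 markers over 24 arrays. The 10 tested fibroblast markers were all lower in the injured lung with 0 called, their median change was -0.45, and the mean of the list ran from 7.83 to 9.21 on injured and from 8.80 to 9.27 on control arrays. Of 7 alveolar type 1 markers 5 were lower with 0 called, their median was -0.46, and the list mean ran from 6.84 to 8.65 on injured arrays and from 8.0 to 8.74 on control arrays. On the 3 arrays of dog 3 that stood apart, MYLK averaged 6.31 against 7.42 on that dog's other 5 arrays, the fibroblast list 8.10 against 9.12 and the alveolar type 1 list 6.88 against 8.42. Without those 3 arrays MYLK stood at -0.45 (limma adjusted p = 0.59). The part of tissue makeup and of RNA quality in the MYLK difference was not tested.

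**Figure D2:**
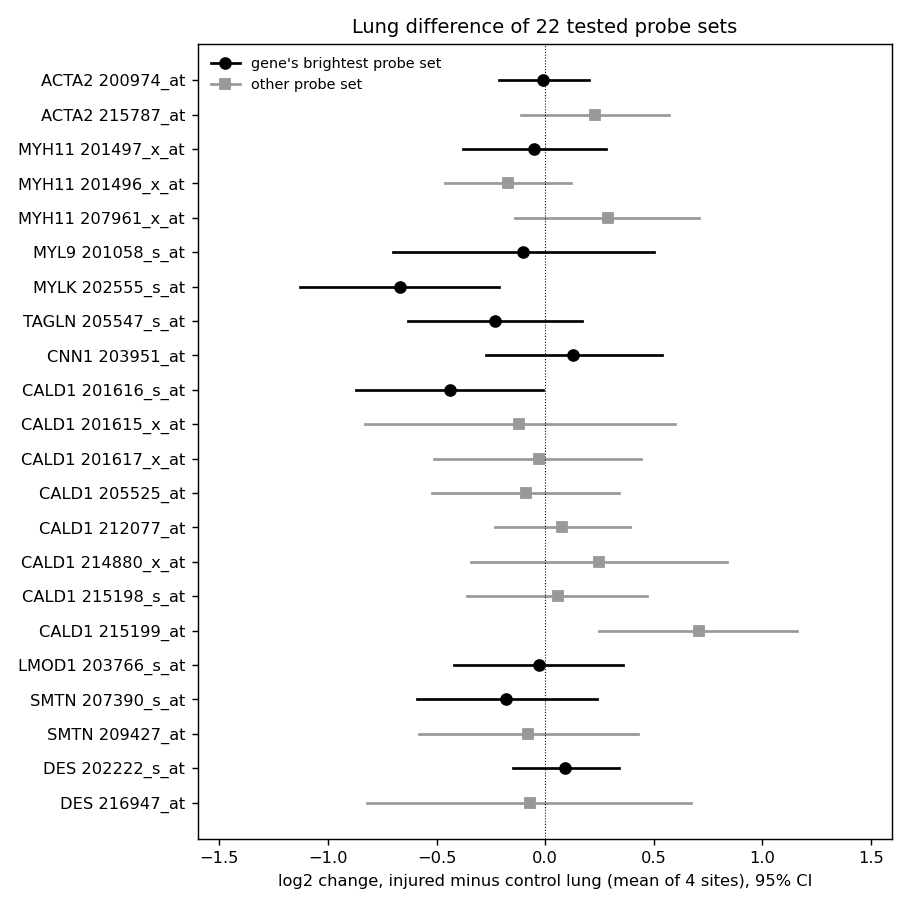
Log2 change of each of the 22 tested probe sets, injured minus control lung over 4 sites, with its 95% confidence interval (black, the brightest probe set of a gene; grey, its others). MYLK at -0.67 and 2 CALD1 probe sets at -0.44 and 0.71 have intervals that leave out 0, and none of them passed after adjustment.

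Of the proteins that bind actin, none passed in either direction. CNN1, or calponin, which restrains the myosin ATPase, stood at 0.13 ± 0.19 and was higher in the injured lung in 8 of 12 pairs. Its Pearson r with the 3' minus 5' signal of GAPDH was 0.60, 0.68 and -0.19 in dogs 1, 2 and 3. With that of ACTB the r was 0.58, 0.37 and 0.42. The part of RNA quality in the CNN1 values was not tested. TAGLN, the calponin relative transgelin, stood at -0.23 ± 0.19 with 6 pairs each way. LMOD1, which nucleates actin filaments, stood at -0.03 ± 0.19. SMTN, smoothelin, stood at -0.18 ± 0.20 and its second probe set at -0.08 ± 0.24. Their confidence intervals together spanned -0.63 to 0.54, so differences of that size remained possible. DES, the intermediate filament protein desmin, stood at 0.09 ± 0.12 (interval -0.15 to 0.34).

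CALD1, caldesmon, which covers the myosin sites on actin, gave the least uniform picture, with 8 tested probe sets whose changes ran from -0.44 to 0.71. The brightest one stood at -0.44 ± 0.21 (limma adjusted p = 0.505), with means of -0.41, -0.05 and -0.86 in dogs 1, 2 and 3. Without dog 3 it stood at -0.23 (limma adjusted p = 0.871) and without the 3 arrays of that dog that stood apart at -0.27 (limma adjusted p = 0.823). Its largest gap was at the apex dependent site, where the control lungs of dogs 1, 2 and 3 measured 10.23, 7.42 and 9.63 and the injured lungs 8.35, 7.32 and 8.09, a change of -1.17 ± 0.42 (adjusted p = 0.64). The control value of dog 2 lay below 2 of the 3 injured values, so the groups overlapped. At both base sites the control values all lay between 8.87 and 9.67.

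Another CALD1 probe set, with a mean log2 signal of 7.02, pointed the other way, at 0.71 ± 0.22 (limma adjusted p = 0.247), and was higher in the injured lung in 9 of 12 pairs. It was called Present on 15 of 24 arrays. The control apex nondependent array of dog 3 read 3.87 on it, where the next lowest array read 6.32. Without that array, an alternative chosen after seeing the data, the mean change was 0.48 (limma adjusted p = 0.134), and the change at the apex nondependent site went from 1.93 to 1.03. The caldesmon gene yields a heavy smooth muscle form and a light form of other cells, and which form each probe set reads in the dog was not analysed here.

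**Figure D3:**
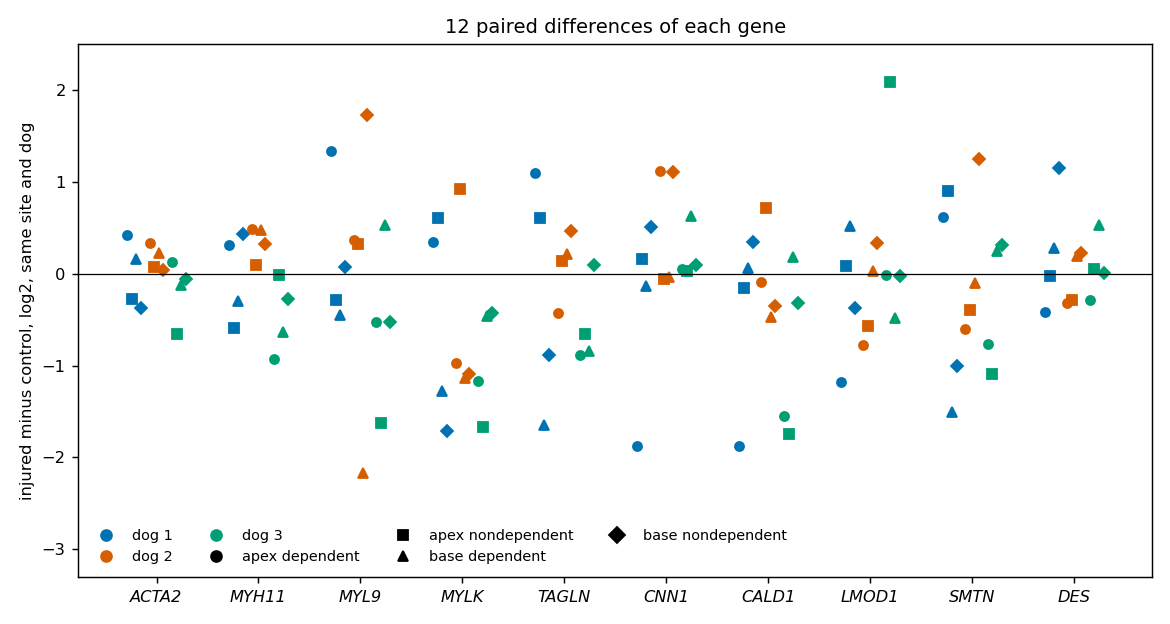
Injured minus control log2 signal for each dog and site (12 points per gene, colour for the dog and symbol for the site). The points of ACTA2 stay between -0.66 and 0.42, those of MYL9 spread from -2.17 to 1.73, and 9 of the 12 MYLK points lie below 0.

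The next question was whether the lung difference depended on where the piece was taken. No member was called at any single site, where limma called 0 of 20034 probe sets (0%) at both apex sites and the base dependent one, and 81 (0.404%) at the base nondependent site. An unadjusted p under 0.05 was reached by 1 of 22 member probe sets at the apex dependent (6.94% of all), 2 at the apex nondependent (5.41%), 1 at the base dependent (6.21%) and 1 at the base nondependent site (8.4%). No member was called in the test of the lung difference at the base minus that at the apex, or in dependent minus nondependent parts. In each of those, 0 of all probe sets (0%) were called. At an unadjusted p under 0.05 stood 2 of 22 member probe sets in the base and apex test, against 1655 of all (8.26%), and 1 of 22 in the other, against 1088 (5.43%). The smallest limma adjusted p among members was 0.492 for the former, from the dimmer CALD1 probe set above, and 0.851 for the latter.

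DES had the smallest p of the brightest probe sets in the comparison of the lung difference at base and apex. At the base its injured lungs exceeded the control lungs of the same dog in all 6 pairs, by 0.28, 0.19 and 0.53 at the dependent and by 1.15, 0.23 and 0.01 at the nondependent site in dogs 1, 2 and 3. At the apex 5 of 6 pairs were lower in the injured lung, the exception being the nondependent site of dog 3 at 0.05. The share of all probe sets whose pairs are ordered like this was not counted. The difference of differences was 0.61 ± 0.24 (interval 0.12 to 1.10), with a limma adjusted p of 0.498 (0.371 to 0.985 over the alternatives).

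Within the injured lung DES was higher at the base than at the apex in every dog. Its apex values, dependent and nondependent, were 7.80 and 7.83 in dog 1, 6.98 and 7.30 in dog 2, and 7.45 and 7.10 in dog 3. Its base values were 8.18 and 8.80, 7.64 and 7.56, and 7.67 and 7.70. In each dog both base pieces lay above both apex pieces, whereas between dogs the ranges overlapped. DES also had the smallest p of the brightest member probe sets in this comparison, so it was not named independently of this order. How many of all probe sets separate in this way within each dog was not counted.

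The base minus apex change of DES in the injured lung was 0.52 ± 0.17 (interval 0.17 to 0.86), and it did not pass (limma adjusted p = 0.309, and from 0.278 to 0.874 over the alternatives). In the control lung the same change was -0.10, with the base pieces neither all above nor all below the apex pieces. The second DES probe set, called Present on 8 arrays, stood at -0.49 in the injured lung. DES also moved with the 3' minus 5' signal of GAPDH, with a Pearson r of 0.78, 0.71 and 0.01 over the 8 arrays of dogs 1, 2 and 3. With the same measure of ACTB the r was 0.35, 0.54 and -0.08. With both measures as covariates the injured-lung change was 0.38 (limma adjusted p = 0.68).

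Regional differences within a lung gave no call among the members. In the injured lung limma called 7 of 20034 probe sets (0.0349%) between base and apex, and 0 between dependent and nondependent parts (0%). In the control lung it called 0 in either comparison (0%). At an unadjusted p under 0.05, 3 of 22 member probe sets differed between base and apex in the injured lung, against 9.02% of all, and 3 of 22 in the control lung, against 1033 of all (5.16%). Between dependent and nondependent parts there was 1 of 22 in the injured lung, against 1056 of all (5.27%), and 0 of 22 in the control lung, against 959 (4.79%). For base minus apex in the injured lung 8 of 10 genes were higher at the base, with a median of 0.19 beside -0.07 over all probe sets, and CALD1 had the largest estimate of the 10, at 0.77 ± 0.29 (limma adjusted p = 0.42). For the control lung 7 of 10 were higher at the base, at a median of 0.08 beside 0.02, with MYLK at 0.65 ± 0.31 and TAGLN at 0.52 ± 0.27 (limma adjusted p = 0.945 for both).

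Between dependent and nondependent parts the members' medians were -0.13 in the injured and 0.13 in the control lung, beside 0.04 and -0.03 over all probe sets. No gene's estimate in these comparisons had an adjusted p under 0.918. By the brightest probe sets the largest sizes were MYLK at -0.53 ± 0.31 in the injured and LMOD1 at 0.37 ± 0.27 in the control lung.

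Across the 8 groups the order of the levels was different for each gene, and neighbours in it mostly lay within their own spread. Of the 7 steps between neighbouring groups, 0 exceeded the SDs of both groups for ACTA2, MYH11, MYL9, MYLK, TAGLN, CNN1, CALD1, SMTN and DES, and 1 did for LMOD1. Unlike orders and small steps are likely for any genes when 8 means of 3 arrays are sorted. No count over all probe sets was made, so these counts do not set the members apart. MYLK ranged from 7.54 ± 0.38 (SD, n = 3 dogs) in the control base nondependent group to 5.99 ± 1.00 in the injured apex dependent group. TAGLN ran from 8.41 ± 0.30 in the control to 7.65 ± 0.85 in the injured base dependent group. The group means of ACTA2 lay between 8.39 ± 0.21 and 7.90 ± 0.58, and those of MYH11 between 7.45 ± 0.16 and 7.03 ± 0.50.

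Dogs differed in level for several members. The dog accounted for 63.5% of the variance of ACTA2 over the 24 arrays, for 54.6% of that of TAGLN and for 51.7% of that of DES, and for a median of 22% over the 10 genes beside 18.6% over all tested probe sets. ACTA2 averaged 8.15 ± 0.21 (SD, 8 arrays), 8.56 ± 0.17 and 7.90 ± 0.27 in dogs 1, 2 and 3. TAGLN averaged 7.30 ± 0.72, 8.61 ± 0.30 and 8.07 ± 0.47, and DES 8.03 ± 0.37, 7.39 ± 0.21 and 7.44 ± 0.30. Dog 1 was thus lowest for TAGLN and highest for DES, while dog 2 was highest for ACTA2. MYH11 had nearly the same mean in each dog, at 7.27, 7.22 and 7.24.

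TAGLN in dog 1 covered most of the range seen in the whole series. Its control values there were 6.79 and 6.40 at the apex dependent and nondependent sites and 8.35 and 8.08 at the base, and its injured values 7.89, 7.01, 6.70 and 7.20 in the same order of sites. In that dog both base values exceeded both apex values in the control lung, and the injured lung showed no such order. In dogs 2 and 3 TAGLN stayed between 8.15 and 9.04 and between 7.41 and 8.74.

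In dog 1 the TAGLN values moved with a measure of RNA quality, less so in dogs 2 and 3. That measure comes from human control probes hybridised with dog RNA. Over the 8 arrays of dog 1, TAGLN and the 3' minus 5' signal of ACTB had a Pearson r of -0.92, compared with -0.07 in dog 2 and -0.29 in dog 3. SMTN gave -0.81, 0.51 and 0.10. With the same measure of GAPDH, TAGLN gave -0.72, 0.04 and -0.11 and SMTN -0.79, -0.01 and -0.24. The ACTB measure spanned -1.76 to 0.74 in dog 1. The pieces of a dog share the animal, and the part of RNA quality in these values was not tested. With the 3' minus 5' signals of ACTB and GAPDH as covariates no member was called in any comparison.

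**Figure D4:**
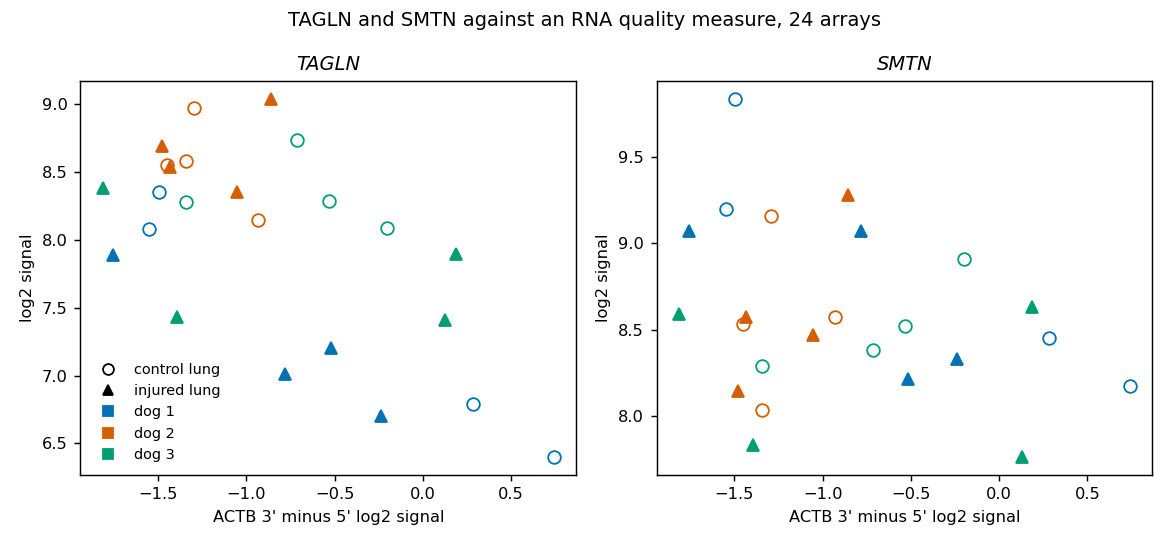
Log2 signal of TAGLN and SMTN (vertical axes) against the 3' minus 5' log2 signal of ACTB (horizontal axis), 1 point per array, with circles for control and triangles for injured lungs, coloured by dog. TAGLN falls along the axis in dog 1, where r is -0.92, and shows no such slope in dog 2, where r is -0.07.

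The signals of the contractile genes did not vary as 1 block from piece to piece. After each dog was centred on its own mean, the 45 pairs of the 10 genes had a median Pearson r of 0.02 over 24 arrays (lowest -0.38, highest 0.74), beside 0.00 over all pairs of symbols, and 24 of the 45 were above 0. TAGLN and SMTN had the highest, with 0.86, 0.59 and 0.63 within dogs 1, 2 and 3. MYLK and CALD1 followed at 0.58, although the value in dog 1 was -0.26 beside 0.79 and 0.91 in dogs 2 and 3. TAGLN and CNN1, which are related proteins, had -0.37. These are descriptions over pieces that share 3 animals. Probe sets of 1 and the same gene had a median r of only -0.02 over 34 pairs. A low r between genes therefore cannot tell whether their transcripts vary together.

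**Figure D5:**
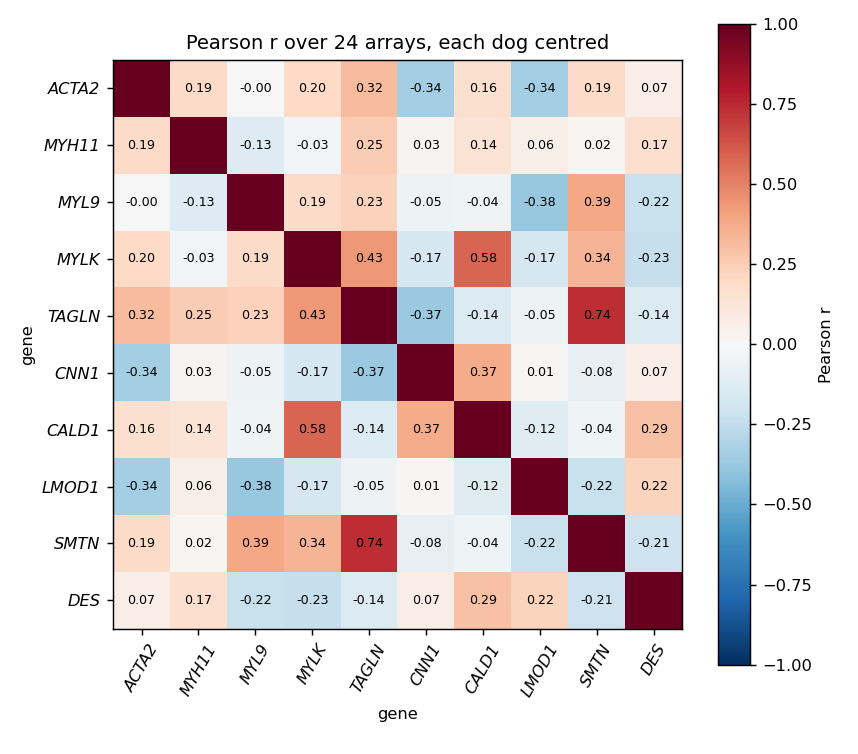
Pearson r between the log2 signals of each pair of genes over 24 arrays, after centring each dog, on a scale from -1 (blue) to 1 (red). TAGLN with SMTN at 0.74 and MYLK with CALD1 at 0.58 are the darkest cells off the diagonal, and most others are pale.

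Probe sets of the same gene also disagreed. SMTN was the exception, with an r of 0.66 between its 2 probe sets. The 2 of ACTA2 had an r of -0.16 and the 2 of DES of -0.19, the 3 pairs of MYH11 a median of 0.13, and the 28 pairs of CALD1 a median of -0.06 (lowest -0.44, highest 0.35). Values of CALD1, ACTA2, DES and MYH11 therefore belong to the probe set named with them.

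Among partners of the contractile genes in the same pathways 2 genes passed the test for the mean of 4 sites. Of all 20034 tested probe sets 42 (0.21%) passed it. The lists were chosen with earlier results of these data known, so these counts cannot show an excess among the partners. Of 29 tested genes of thin filaments and adhesion, 0 rose and 0 fell. The smallest p belonged to the tropomyosin TPM1 at -0.64 (limma adjusted p = 0.125), the actin-binding supervillin SVIL at -0.50 and the tropomyosin TPM4 at 0.32. Of 12 genes that set myosin light chain phosphorylation 0 passed, with ARHGEF12 at -0.30 and the myosin phosphatase subunit PPP1CB at -0.49.

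Of 17 tested regulators of the smooth muscle programme 1 fell, KLF4, a repressor of contractile genes in vascular smooth muscle that is also expressed by endothelium and epithelium (-0.76 ± 0.15, limma adjusted p = 0.0285). It passed in 5 of 13 alternatives, and leaving out dog 1, 2 or 3 gave -0.71, -0.80 and -0.78 with limma adjusted p of 0.277, 0.47 and 0.118. The Notch ligand JAG1 stood at -0.30 and the SRF coactivator MRTFA at 0.28. Of 21 genes of calcium handling and excitation 1 fell, PLCB4, a phospholipase C downstream of contractile receptors (-1.15 ± 0.22, limma adjusted p = 0.0278). PLCB4 passed in 6 of 13 alternatives, and leaving out dog 1, 2 or 3 gave -1.31, -1.10 and -1.05 with limma adjusted p of 0.101, 0.47 and 0.251. Without the 3 arrays of dog 3 that stood apart neither KLF4 nor PLCB4 passed (limma adjusted p = 0.109 for both). STIM1, a calcium sensor of the reticulum, stood at 0.46, and the calcium release channel RYR2 at -1.05 ± 0.43 (limma adjusted p = 0.41). Of 22 receptors for contractile and relaxing agonists and their regulators 0 passed, with the angiotensin receptor AGTR1 at 0.49, the histamine receptor HRH1 at 0.41 and the G protein regulator RGS4 at 0.35.

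Markers of the other muscle types and of pericytes gave 0 calls for the mean of 4 sites, where 0.21% of all tested probe sets were called. The 9 cardiac markers had a median change of -0.10, the 7 skeletal muscle markers of -0.03 and the 7 pericyte markers of -0.05. The 9 endothelial markers had a median of -0.16, the 8 alveolar type 2 markers of -0.14, the 7 alveolar type 1 markers of -0.46, the 13 leukocyte markers of 0.04, the 6 mesothelial markers of -0.08 and the 3 red cell markers of 0.07, with 0 called in each. Airway epithelium (8 tested, median 0.07), airway cartilage (8 tested, -0.05) and nerve (4 tested, 0.15) also had 0 called.

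The genes whose pattern over the 24 pieces was most like the mean of the 10 members were BCL2, an inhibitor of cell death (r of 0.84), the splicing protein SRRM2 (0.81), the splicing regulator RBFOX2 (0.77), GNL3L (0.74), and EFNB2, JOSD1, KLC1 and MYLIP (0.73 each). They led a ranking of 11216 symbols by r after centring each dog. All 8 were called Present on 24 arrays and stood between -0.81 and -0.14 in the lung comparison, with 0 called. The mean of the members was itself lowest on 2 of the dog 3 arrays that stood apart, at -0.50 in the apex dependent and -0.30 in the apex nondependent piece.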

How the data were processed

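Total RNA of 24 lung pieces of 3 dogs was measured on a human Affymetrix array. The authors deposited a linear signal intensity per probe set with a detection call. The 2% trimmed mean was 149.9 to 149.92 on every array, and the sources used here name no software. The series table and the array files were identical, and no 2 arrays were. The headers of 24 arrays matched their titles in lung, level and position. The headers number the dogs differently from the titles, whose numbers were used, and each title number goes with 1 header number.

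Signals were scaled to a trimmed mean of 150, set to at least 0.1 (3 zeros) and put on the log2 scale. Probe sets called Present on at least 6 arrays entered 1 limma fit (version 3.58.1, R 4.3.3) of 8 groups plus the dog as a block, with a variance trend. P-values were adjusted by Benjamini-Hochberg over 20034 probe sets, and the script was tested on simulated data. The dog was a block because its 8 pieces come from 1 animal per the titles. After subtracting group means, arrays of 1 dog correlated at a median of 0.236 and those of different dogs at -0.136. Pieces of a lung count as separate units except in per-dog means.

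Each gene's main probe set was the tested one with the highest mean. Related genes named are those with the smallest p of each list, up to 3 (1 of them is not reported here), and 8 genes are named by likeness of pattern. Members and lists were chosen with earlier results of these data known. The number of arrays limits the precision. Alternatives changed the block, normalization, detection filter, offset, arrays used and RNA quality covariates.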

Additional observations from a re-analysis of the deposited data

Results flagged for a closer look

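DES was the only 1 of the 10 genes, by their brightest probe sets, for which every dog moved one way at one site and the opposite way at another. Its injured minus control difference was below 0 in all 3 dogs at the apex dependent site and above 0 in all 3 at both base sites. The mean difference was 0.68 larger at the base dependent and 0.81 larger at the base nondependent site than at the apex dependent site. These pairs of sites were not tested against each other. Dimmer CALD1 probe sets showed such a pattern too, so it was not particular to DES. The one with a mean log2 signal of 7.02 was above 0 in all 3 dogs at both apex sites and the base dependent site. At the base nondependent site it was below 0 in all 3. Another was below 0 in all 3 at the apex nondependent and above 0 at the base dependent site. A further one was above 0 at the apex dependent and below 0 at the apex nondependent site. The number of all tested probe sets with such a pattern was not counted. The second DES probe set was above 0 in all 3 dogs at the base dependent site. At the base nondependent site it was below 0 in all 3, by -0.06, -0.43 and -2.27. The related test of base against apex over both positions gave 0.61 for the brightest DES probe set, with a limma adjusted p of 0.498, and -0.32 for the second.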

How the results depend on the processing

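The count of member probe sets called was 0 in all 11 comparisons and stayed 0 under every alternative run, the smallest adjusted p of any member being 0.134. With no replicate block it was 0 in each comparison too, and the block changed no call of a member, while KLF4 (adjusted p = 0.487) and PLCB4 (adjusted p = 0.138) did not pass without it. Of 277 alternative values of single member probe sets, 263 kept their direction, 14 turned, and 0 gained a call. The turned ones were all for the mean of 4 sites. Without the 3 arrays of dog 3 that stood apart, ACTA2 was 0.10, MYH11 0.03, MYL9 0.04 and CNN1 -0.03. With the mean of all tested probe sets of a gene, ACTA2 was 0.11, MYH11 0.02 and CALD1 0.05. Without the control apex nondependent array of dog 3, an alternative chosen after seeing the data, ACTA2 was 0.01. Leaving out 1 dog at a time gave -0.10 to 0.08 for ACTA2, -0.25 to 0.15 for MYH11, -0.24 to 0.11 for MYL9, -0.07 to 0.37 for CNN1, -0.24 to 0.08 for LMOD1, -0.63 to -0.23 for CALD1, -0.39 to -0.05 for TAGLN, -0.28 to -0.10 for SMTN and 0.01 to 0.16 for DES. The causes were not tested. MYLK ran from -0.75 to -0.45 over all alternatives. The median SE of a member was 0.19 for the mean of 4 sites and 0.39 for 1 site. These SEs come from the fit of 24 pieces with the dog as a block, not from 3 per-dog values.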
